A study of Mus musculus with 6 samples.

Results

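Axin2 and 6 other feedback targets of canonical Wnt signalling (Nkd1, Nkd2, Notum, Apcdd1, Tnfrsf19 and Sp5) were followed in cells sorted from injured mouse kidneys. They were taken by gene symbol, and all 7 stood in the deposited table of 31815 mouse genes. There were 3 libraries from tdT+GFP+ cells and 3 from their tdT-GFP+ counterparts, with kidneys 1, 2 and 3 each giving 1 library of both kinds. Both populations came from male Axin2CreERT2/+:R26RtdT/+:Acta2-GFP mice aged 9 to 12 weeks, which underwent bilateral ischemia reperfusion injury, received tamoxifen on days 2 and 4 and were sampled on day 6. One Axin2 allele thus carries the tamoxifen-inducible Cre recombinase in the cells of either sort. Cre activity switches on the red reporter tdT for good, so that red cells are those that used Axin2 around the tamoxifen days and their descendants, while the green reporter GFP follows Acta2, the smooth muscle actin gene of myofibroblasts. The comparison asks whether cells with a history of Axin2 use still differ in Wnt feedback transcripts at the time of the sort. Reporter transcripts were not analysed here.

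In canonical Wnt signalling, a Wnt ligand bound to Frizzled and Lrp receptors stops the destruction complex from degrading beta-catenin, which then drives transcription together with TCF and LEF factors. Many of the genes switched on in this way encode inhibitors that act back on the pathway, and their transcripts are widely read as a measure of recent Wnt activity. Axin2 is a scaffold of the destruction complex, Nkd1 and Nkd2 are antagonists that bind Dishevelled, Notum is a secreted enzyme that removes the lipid from Wnt ligands, and Apcdd1 is a membrane inhibitor acting at the level of ligand and receptor. Tnfrsf19 (Troy) is a member of the tumour necrosis factor receptor family, and Sp5 is a zinc finger transcription factor. In the kidney, Wnt signalling is known to be active in interstitial cells after injury.

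Library totals were 26919514 to 33029933 counts in tdT+GFP+ and 25697348 to 31337198 counts in tdT-GFP+ libraries. Levels are given in CPM, a gene's count relative to the size of its library, with sizes scaled by the trimmed mean of M values (TMM). The gene behind the green reporter, Acta2, had 1577, 1416 and 1747 CPM in tdT+GFP+ libraries 1, 2 and 3 and 1588, 944 and 943 CPM in tdT-GFP+ libraries 1, 2 and 3. The stromal genes Col1a1 and Pdgfrb were abundant in all 6 libraries, at 14933 CPM or more and 1370 CPM or more. Transcripts of other cell types were present too: of 18 endothelial markers, 18 had lower values in tdT+GFP+ cells (median log2 fold change -1.27), with summed levels of 1583 to 2301 CPM in tdT+GFP+ and 2672 to 4409 CPM in tdT-GFP+ libraries. None of the endothelial, macrophage or injured tubule markers was at 0 in all libraries. In edgeR's test, described below, none of the markers of any cell type was called, against 0% of all genes tested. In such bulk libraries, fewer cells of a type and less RNA per cell cannot be told apart. The kidney numbers of the labels did not go with likeness between the sorts for numbers 2 and 3: across genes, the deviations from the group mean correlated at 0.039, -0.578 and -0.304 for the same-numbered libraries of kidneys 1, 2 and 3, but at 0.448 between tdT+GFP+ library 2 and tdT-GFP+ library 3 and at 0.444 between tdT+GFP+ library 3 and tdT-GFP+ library 2. As deviations were taken from each sort's own mean, these correlations are not independent of one another, and what gave them was not tested. Whether numbers 2 and 3 stand for the same kidneys in both sorts is in doubt. Each value per kidney or without a kidney rests on the numbers as labelled.

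Short sequences around the starts of these genes were searched for the classical TCF/LEF motif. Apcdd1 and Notum were not part of this search, and whether their windows hold the motif was not tested. RefSeq promoter windows of GRCm38.p6, from 250 bases before to 50 bases after a start site, were used for 5 of the 7 genes. They were searched on both strands for CTTTGA and CTTTGT, the letters shared by most forms of the motif, which do not overlap each other in these windows. CTTTGA was in 16.0% and CTTTGT in 18.7% of all 32851 windows, and the longer form CTTTGATC, which contains CTTTGA, in 0.938%. The Axin2 window is shown because Axin2 is the gene that defines the sort. The Sp5 window and 1 of the 2 Tnfrsf19 windows are shown because, of the 6 windows searched, only these 2 held a match. The share of all windows with either motif was not computed, so this count is given as a description only. Capitals mark either motif or its reverse complement, and the windows are given 5′ to 3′ on the strand of the gene.
Axin2, chr11:108920099-108920398, plus strand: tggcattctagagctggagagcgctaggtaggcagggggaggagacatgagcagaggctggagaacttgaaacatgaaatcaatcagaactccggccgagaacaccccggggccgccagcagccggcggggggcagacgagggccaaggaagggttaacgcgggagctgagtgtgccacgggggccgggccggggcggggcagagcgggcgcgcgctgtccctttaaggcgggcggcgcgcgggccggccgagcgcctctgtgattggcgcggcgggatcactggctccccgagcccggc
Sp5, chr2:70474673-70474972, plus strand: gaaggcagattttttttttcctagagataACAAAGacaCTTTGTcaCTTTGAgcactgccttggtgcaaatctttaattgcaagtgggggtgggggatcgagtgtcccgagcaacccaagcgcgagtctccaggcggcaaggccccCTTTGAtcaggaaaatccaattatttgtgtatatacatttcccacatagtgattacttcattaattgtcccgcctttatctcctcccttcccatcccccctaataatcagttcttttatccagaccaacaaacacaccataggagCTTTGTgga
Tnfrsf19, chr14:61037938-61038237, minus strand: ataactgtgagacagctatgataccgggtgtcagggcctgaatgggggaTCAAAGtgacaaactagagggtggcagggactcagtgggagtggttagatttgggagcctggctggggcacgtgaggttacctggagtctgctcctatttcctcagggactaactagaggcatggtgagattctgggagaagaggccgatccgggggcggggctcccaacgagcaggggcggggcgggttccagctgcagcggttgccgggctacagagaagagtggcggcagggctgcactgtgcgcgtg
Sp5 had 2 matches to CTTTGA and 3 to CTTTGT, and both Sp5 and this Tnfrsf19 window held the longer form. The Tnfrsf19 window belongs to a start site 8503 bases inside the gene model's own start, and the other Tnfrsf19 window had no match. The windows of Axin2, Nkd1 and Nkd2 held neither motif, which says only that these letters are not in this stretch. The Nkd1 window belongs to a start site 6279 bases inside the gene model's own start.

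The Wnt feedback genes covered a wide range of levels, led by the Naked genes and ending with Notum and Sp5. Per kb of merged exon length, Nkd1 averaged 44.3 CPM per kb over the 6 libraries (28.5 to 57.7) and stood above 94.2% of 15453 tested genes with a length. Nkd2 followed with 25.1 CPM per kb (17.0 to 39.4). Axin2 had 8.51 CPM per kb (4.96 to 11.7) and Apcdd1 6.88 CPM per kb (3.35 to 9.81), and these places near the middle of the order were above 68.9% and 63.4% of genes. Tnfrsf19 had 1.82 CPM per kb (0.618 to 3.29). Notum, at 0.437 CPM per kb (0.215 to 1.06), and Sp5, at 0.346 CPM per kb (0.174 to 0.512), were the least abundant, above 12.8% and 10.5% of genes. Along this order the ranges of Nkd1 and Nkd2, of Axin2 and Apcdd1, of Tnfrsf19 and Notum, and of Notum and Sp5 overlapped. Within single libraries, however, Nkd1 was above Nkd2, Axin2 above Apcdd1 and Tnfrsf19 above Notum in 6 of 6, and Notum was above Sp5 in only 4 of 6, so that this last pair has no settled order. The ranges of Nkd2 and Axin2 did not overlap, nor did those of Apcdd1 and Tnfrsf19.

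**Figure D1:**
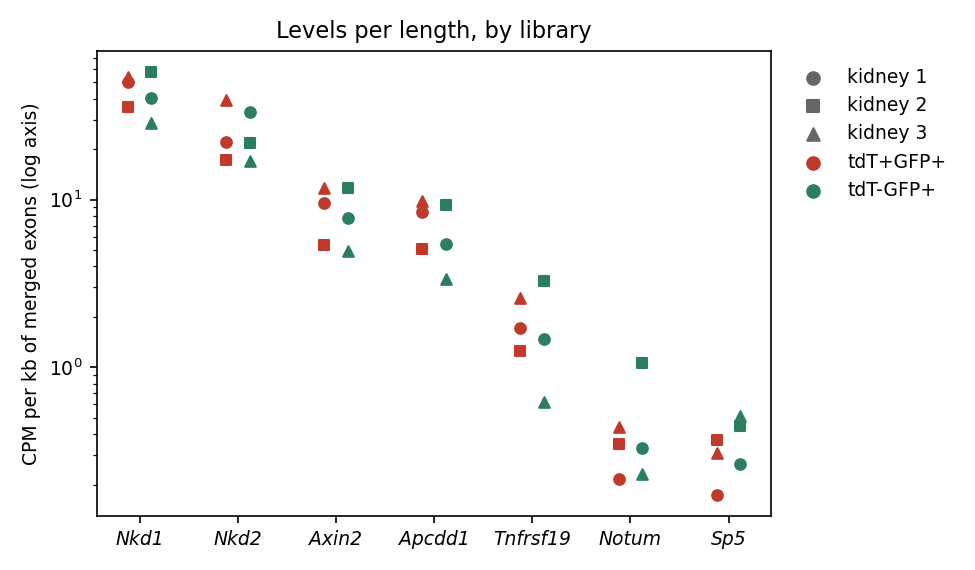
CPM per kb of merged exon length (log axis) of the 7 Wnt feedback genes in each of the 6 libraries, tdT+GFP+ on the left of each pair and tdT-GFP+ on the right, with the marker shape giving the kidney. Nkd1 (28.5 to 57.7 CPM per kb) and Nkd2 (17.0 to 39.4) lie above Axin2 and Apcdd1, and Notum and Sp5 lie lowest.

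None of the 7 genes passed the test between the populations, and in each the values of the 2 groups overlapped. At an adjusted p under 0.05 in edgeR's quasi-likelihood test, 0 of 7 were called, against 0% of the 15462 genes tested, and 0 of 7 had an unadjusted p under 0.05, against 10.7% of genes. DESeq2 called 0 of 7 as well, against 1.93% of its genes, and with the kidney as a block 0 of the 6 that it gave an adjusted p, against 1.95%. Groups without overlap were seen for 0 of 7, against 15.8% of all genes. Log2 fold changes (tdT+GFP+ over tdT-GFP+) were positive for 5 and negative for 2 of the 7, and 49.9% of all genes had positive values. Their median was 0.12, and the median over all genes tested was -0.00039. The intervals given with each gene are wide, and the missing calls do not show that the populations express these genes alike.

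Axin2 (gene identifier ENSMUSG00000000142.15, on the plus strand of chromosome 11 from 108920349 to 108950783 in GRCm38, protein coding as are the other 6) had 52.8, 29.7 and 64.2 CPM in tdT+GFP+ libraries 1, 2 and 3, against 43.0, 64.2 and 27.3 CPM in tdT-GFP+ libraries 1, 2 and 3. The high and the low values were thus split evenly over the sorts, with tdT+GFP+ library 3 and tdT-GFP+ library 2 at the top and tdT+GFP+ library 2 and tdT-GFP+ library 3 at the bottom. Behind these values were 737 to 1729 counts, for which counting alone gives a coefficient of variation of at most 3.68%, while the libraries varied by 36.0% within tdT+GFP+ and 41.3% within tdT-GFP+ cells. The log2 fold change was 0.12 with a 95% interval of -0.79 to 1.03 (adjusted p = 0.907, edgeR). It was positive in kidneys 1 and 3 (0.29 and 1.23) and negative in kidney 2 (-1.11), and over fits that each left out 1 library or 1 kidney it ran from -0.38 without kidney 3 to 0.72 without kidney 2. Leaving out only tdT+GFP+ library 3 gave -0.12, and leaving out only tdT-GFP+ library 3 gave -0.13.

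The Dishevelled-binding antagonists Nkd1 and Nkd2 were the most abundant of the group and did not follow each other in every library. Nkd1 (ENSMUSG00000031661.12, chromosome 8, 88521354 to 88594884, plus strand) had 227, 162 and 246 CPM in tdT+GFP+ libraries 1, 2 and 3, against 183, 263 and 130.0 CPM in tdT-GFP+ libraries 1, 2 and 3. Its libraries stood in the order of the Axin2 ones at the bottom and at the top, and the groups overlapped fully. The log2 fold change of Nkd1 was 0.14 (95% interval -0.52 to 0.80, adjusted p = 0.849, edgeR), with 0.31, -0.70 and 0.92 in kidneys 1, 2 and 3. It was -0.20 without kidney 3, -0.075 when only tdT-GFP+ library 3 was left out, and 0.59 without kidney 2. Nkd2 (ENSMUSG00000021567.15, chromosome 13, 73818534 to 73847631, minus strand) had 107, 83.5 and 190.0 CPM in tdT+GFP+ libraries 1, 2 and 3, against 161, 105 and 82.2 CPM in tdT-GFP+ libraries 1, 2 and 3. It was highest in tdT+GFP+ library 3 and tdT-GFP+ library 1, and tdT-GFP+ library 2, at the top for Nkd1, was the third lowest for Nkd2. The log2 fold change of Nkd2 was 0.13 (95% interval -0.75 to 1.00, adjusted p = 0.901, edgeR), with -0.60, -0.33 and 1.21 in kidneys 1, 2 and 3. It was -0.49 without kidney 3, and leaving out only library 3 of 1 sort gave -0.28 (tdT+GFP+) or -0.070 (tdT-GFP+). Per kb, the level of Nkd2 over that of Nkd1 was 0.443, 0.486 and 0.731 in libraries 1, 2 and 3 of tdT+GFP+ cells, against 0.832, 0.376 and 0.597 in libraries 1, 2 and 3 of tdT-GFP+ cells, so that Nkd1 was the higher of the pair in each library.

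Apcdd1, the membrane inhibitor, had the widest positive fold change of the 7 and nearly the same order of libraries as Axin2. Apcdd1 (ENSMUSG00000071847.13, chromosome 18, 62922231 to 62961179, plus strand) had 108, 64.9 and 126 CPM in tdT+GFP+ libraries 1, 2 and 3, against 70.0, 119 and 43.2 CPM in tdT-GFP+ libraries 1, 2 and 3. Only tdT+GFP+ library 3 lay above all tdT-GFP+ libraries, and only tdT-GFP+ library 3 lay below all tdT+GFP+ ones. The log2 fold change was 0.37 (95% interval -0.59 to 1.33, adjusted p = 0.708, edgeR), with 0.63, -0.87 and 1.55 in kidneys 1, 2 and 3. It ranged from -0.12 without kidney 3 to 1.05 without kidney 2.

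Tnfrsf19, the receptor of the group, varied most between libraries among the 5 genes above 5 CPM. Tnfrsf19 (ENSMUSG00000060548.13, chromosome 14, 60963875 to 61046490, minus strand) had 8.12, 5.90 and 12.2 CPM in tdT+GFP+ libraries 1, 2 and 3, against 6.98, 15.6 and 2.93 CPM in tdT-GFP+ libraries 1, 2 and 3. Both extremes were tdT-GFP+ libraries, a 5.32-fold span from library 3 to library 2 that enclosed the tdT+GFP+ values. With 79 to 417 counts, counting gives a coefficient of variation of at most 11.3%, against 36.7% between tdT+GFP+ and 76.0% between tdT-GFP+ libraries. Its log2 fold change of 0.040 had a 95% interval of -1.36 to 1.44 (adjusted p = 0.982, edgeR), with 0.22, -1.39 and 2.03 in kidneys 1, 2 and 3. The fitted value was -0.68 without kidney 3, -0.022 without kidney 1 and 1.02 without kidney 2. When single libraries were left out, it was -0.27 for tdT+GFP+ library 3, -0.075 for tdT-GFP+ library 1 and -0.37 for tdT-GFP+ library 3.

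Notum and Sp5 were near 1 CPM, where counting gives a coefficient of variation of at most 25.8% for Notum and 28.9% for Sp5. Between libraries it was 34.0% in tdT+GFP+ and 83.7% in tdT-GFP+ cells for Notum, and 35.0% and 31.1% for Sp5. Notum (ENSMUSG00000042988.10, chromosome 11, 120653788 to 120661175, minus strand) had 17, 26 and 28 counts in tdT+GFP+ libraries 1, 2 and 3 (0.519, 0.838 and 1.07 CPM), against 24, 68 and 15 counts in tdT-GFP+ libraries 1, 2 and 3 (0.790, 2.54 and 0.556 CPM). The library that stood out was tdT-GFP+ library 2, whose exact Poisson interval of 1.97 to 3.22 CPM (95%, covering counting error only) lay above the intervals of the other 5. The log2 fold change of Notum was -0.68 (95% interval -2.19 to 0.82, adjusted p = 0.660, edgeR), but 0.24 when tdT-GFP+ library 2 was left out and 0.21 without kidney 2. Sp5 (ENSMUSG00000075304.2, chromosome 2, 70474923 to 70477729, plus strand), the transcription factor, had 12, 24 and 17 counts in tdT+GFP+ libraries 1, 2 and 3 (0.366, 0.773 and 0.647 CPM), against 17, 25 and 29 counts in tdT-GFP+ libraries 1, 2 and 3 (0.560, 0.934 and 1.08 CPM). It was the only gene of the 7 that was lower in the tdT+GFP+ library of each kidney (log2 differences of -0.53, -0.25 and -0.68), yet the groups overlapped. Its log2 fold change was -0.52 (95% interval -1.51 to 0.47, adjusted p = 0.615, edgeR), and it ran from -0.76 with tdT+GFP+ library 2 left out to -0.26 with tdT+GFP+ library 1 left out. The Poisson intervals of single Sp5 libraries, such as 0.189 to 0.640 CPM in tdT+GFP+ library 1 and 0.326 to 0.896 CPM in tdT-GFP+ library 1, each spanned more than that difference.

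**Figure D2:**
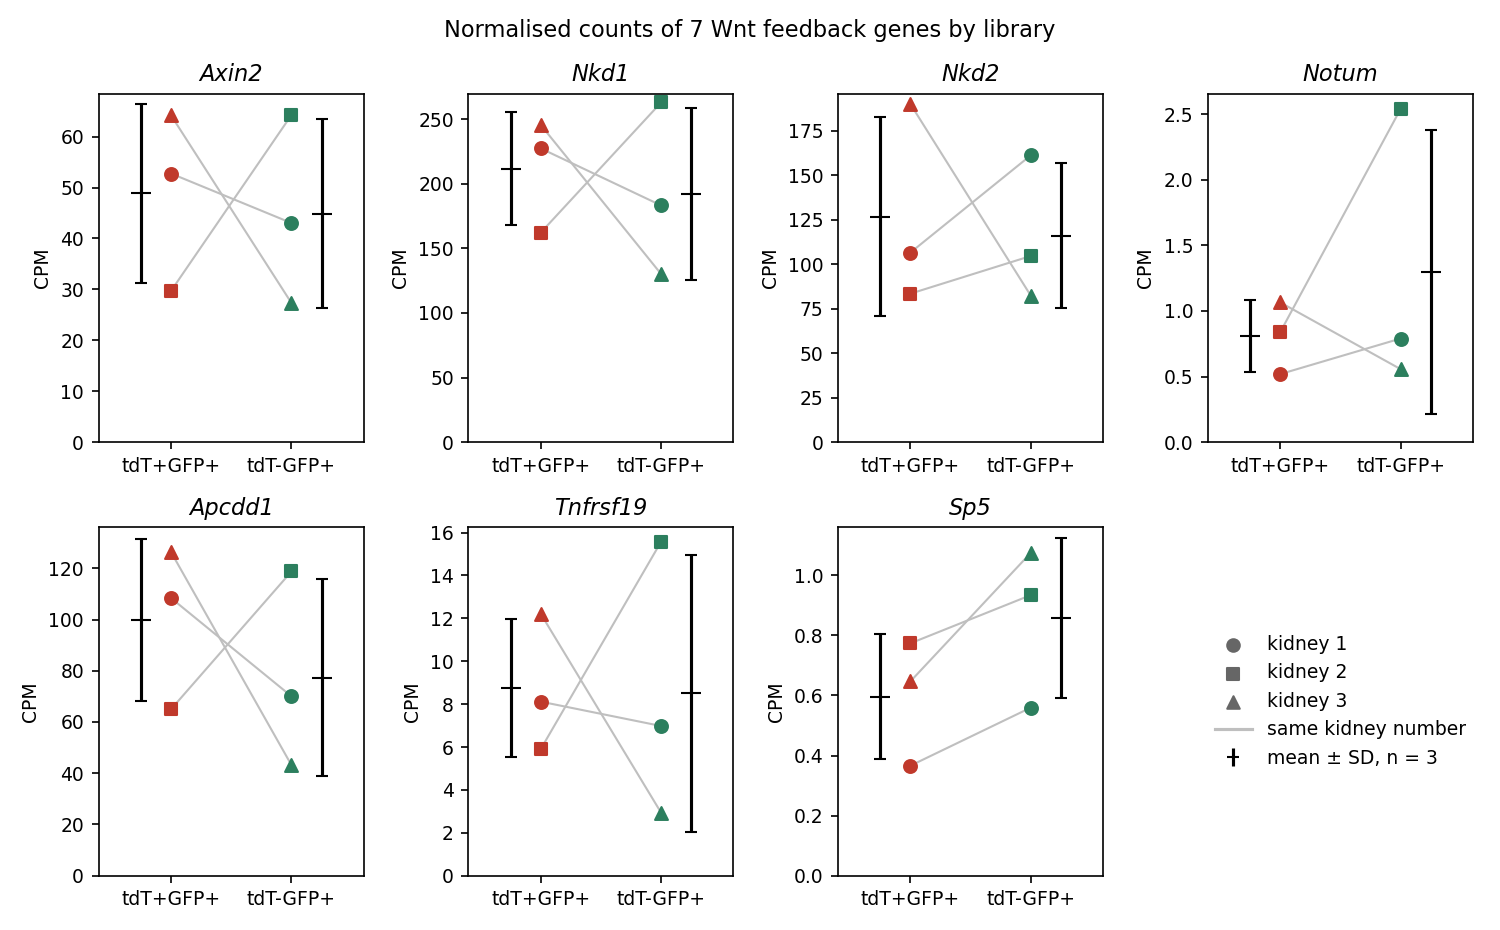
CPM of each gene (linear axes from 0) in tdT+GFP+ libraries on the left and tdT-GFP+ libraries on the right of each panel, with grey lines joining the same kidney number and bars giving mean ± SD (n = 3). For Axin2, Nkd1, Apcdd1 and Tnfrsf19 the kidney 2 line runs against the lines of kidneys 1 and 3, and the groups overlap in each panel.

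**Figure D3:**
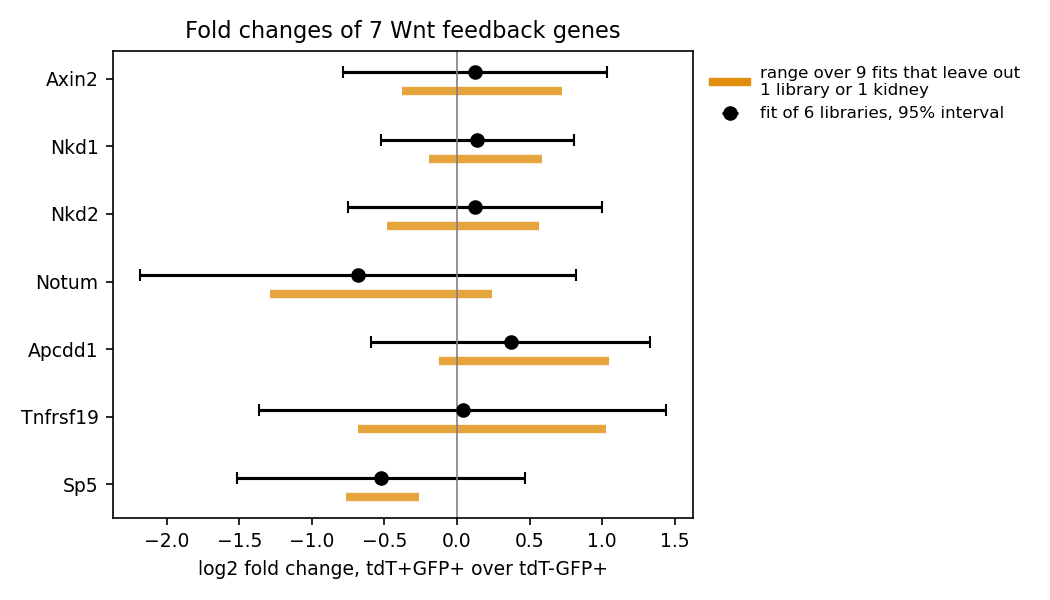
Log2 fold change of tdT+GFP+ over tdT-GFP+ cells for the 7 genes from the fit of all 6 libraries with its 95% interval (black), and the range over the 9 fits that left out 1 library or 1 kidney (orange). Each 95% interval includes 0, and each orange range except that of Sp5 (-0.76 to -0.26) includes 0 too.

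Across libraries, Axin2, Nkd1, Apcdd1 and Tnfrsf19 deviated from their own means to the same side in each of the 6, in a course that followed neither the sort nor the kidney number as labelled. The libraries that were alike in it, number 2 of one sort with number 3 of the other, also had the largest correlations between the sorts over all genes. As deviations of log2 CPM, the 4 genes averaged 0.24, -0.39 and 0.54 in libraries 1, 2 and 3 of tdT+GFP+ cells, against -0.12, 0.63 and -0.89 in libraries 1, 2 and 3 of tdT-GFP+ cells. These 4 genes were positive in kidneys 1 and 3 and negative in kidney 2, a pattern shown by 14.4% of all genes. With Nkd2 added, 5 of 7 had tdT+GFP+ library 2 and tdT-GFP+ library 3 as their lowest 2, as did 8.33% of all genes. Both patterns were picked out after the values were seen and are given as a description. Notum shared the high value of tdT-GFP+ library 2 and the low one of tdT-GFP+ library 3, and Sp5 followed another course, with its highest value in tdT-GFP+ library 3.

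**Figure D4:**
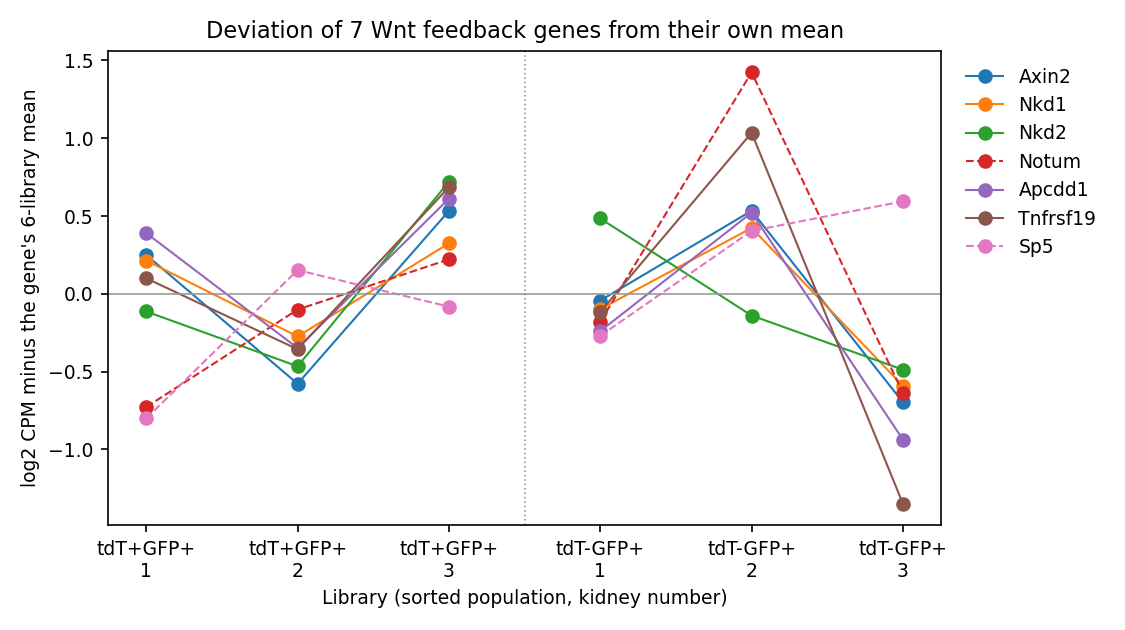
Deviation of log2 CPM from the gene's own mean over the 6 libraries, for tdT+GFP+ libraries left of the dotted line and tdT-GFP+ libraries right of it, with lines that only join the points of 1 gene (dashed for the low genes Notum and Sp5). Axin2, Nkd1, Apcdd1 and Tnfrsf19 lie above 0 in tdT+GFP+ library 3 and tdT-GFP+ library 2 and below 0 in tdT+GFP+ library 2 and tdT-GFP+ library 3.

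These genes varied more from library to library than most genes of like abundance. The SD of log2 CPM over the 6 libraries was 0.54 for Axin2, larger than for 95.5% of the 4846 tested genes within 2-fold of its mean CPM, whose median was 0.13. The same share was 97.6% for Apcdd1 (SD 0.61), 96.3% for Nkd2 (SD 0.50), 94.8% for Tnfrsf19 (SD 0.84) and 92.7% for Nkd1 (SD 0.39). It was 79.4% for Notum, and 44.8% for Sp5, whose SD of 0.50 was close to the median of 0.53 at its low level.

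The likeness of profiles was measured as the root mean square difference of log2 CPM over the 6 libraries after each gene was centred on its own mean, among 11098 tested genes with a mean of at least 5 CPM. From Axin2, the distance was 0.165 to Nkd1 and 0.171 to Apcdd1, and 8 and 10 of these genes were nearer, while the median gene was at 0.507. Tnfrsf19 and Nkd2 were farther from Axin2, at 0.360 and 0.399, and Notum and Sp5, at 0.591 and 0.791, were farther than the median gene. Tnfrsf19, whose deviations were wider, was 0.300 from Apcdd1 and 0.428 from Nkd1. Counted from Nkd1, 69.3% of genes were nearer than Tnfrsf19, but counted from Tnfrsf19 only 0.324% were nearer than Nkd1. Outside the 7, the nearest to Axin2 were the receptor gene Gpr165 (0.120), the BMP family ligand gene Gdf7 (0.128) and the antisense gene Dhx58os (0.130), whose reads may be shared with its partner. The nearest to Nkd1 were the profilin gene Pfn2 (0.0509), the BMP receptor gene Bmpr1b (0.0684) and Dpysl4 (0.0719), and those to Nkd2 were the sulfotransferase gene Chst1 (0.109), Shc4 (0.131) and Ogdhl (0.135). Apcdd1 lay nearest to Tmem26 (0.0674), the potassium channel gene Kcna6 (0.100) and Gdf7 (0.108). Lef1, which encodes a DNA-binding partner of beta-catenin and is a Wnt target itself, was the nearest gene to Tnfrsf19 (0.244, before Kcna6 at 0.275 and Tmem26 at 0.279) and to Notum (0.376, before Tnfsf9 at 0.389 and Edn1 at 0.395). Lef1 had 8.33, 5.99 and 12.7 CPM in tdT+GFP+ libraries 1, 2 and 3, against 7.54, 23.4 and 4.34 CPM in tdT-GFP+ libraries 1, 2 and 3, with the peak and the trough in the same libraries as Tnfrsf19. The distances are descriptions of 6 libraries from 3 kidneys.

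Markers of other cells also differed between the libraries that were high and low for Axin2. The 10 injured tubule markers summed to 2380, 3560 and 3015 CPM in tdT+GFP+ libraries 1, 2 and 3, and to 3209, 2787.5 and 6236 CPM in tdT-GFP+ libraries 1, 2 and 3. The largest sum of either sort was thus in the library with the least Axin2. The 12 proximal tubule markers did not follow this in both sorts, with sums of 582, 725 and 637 CPM in tdT+GFP+ libraries 1, 2 and 3, and 403, 1360 and 1019 CPM in tdT-GFP+ libraries 1, 2 and 3, the tdT-GFP+ sum being highest in the library with the most Axin2. The 12 distal and collecting tubule markers summed to 325, 287 and 837 CPM in tdT+GFP+ libraries 1, 2 and 3, lowest in the one with the least Axin2, and to 667, 1103 and 1481 CPM in tdT-GFP+ libraries 1, 2 and 3. Macrophage markers, 12 of 12 with positive log2 fold changes, summed to 1368, 1920 and 535 CPM in tdT+GFP+ and to 678, 394 and 1136 CPM in tdT-GFP+ libraries 1, 2 and 3, and endothelial and mural markers were likewise highest in tdT+GFP+ library 2 and tdT-GFP+ library 3 within their sorts. The 10 myofibroblast markers summed to 55201, 54121 and 59397 CPM in tdT+GFP+ and to 62654, 48070 and 42223 CPM in tdT-GFP+ libraries 1, 2 and 3. None of these markers was called by edgeR. The part of these cells in the levels of the 7 genes was not tested.

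Other known Wnt targets did not pass the test either, and most had lower values in tdT+GFP+ cells. Of 25 listed targets beside the 7, 19 passed the filter on low counts, 0 were called, 5 had positive and 14 negative log2 fold changes, and the median was -0.36, against -0.00039 over all genes tested. This median came to -0.096 when tdT-GFP+ library 2 was left out and to -0.086 without kidney 2. DESeq2 called 0 of the 19 too. An unadjusted p under 0.05 in edgeR was seen for 5 of 19, a larger share than the 10.7% of all genes. This count ran from 0 to 6 over the fits that left out a library or kidney. Groups without overlap were seen for 3 of 19, which is no more than the share of 15.8% over all genes. Among genes with positive values, the Wnt receptor-removing ligase gene Znrf3 had 17.6, 16.3 and 15.4 CPM in tdT+GFP+ libraries 1, 2 and 3, against 13.5, 14.4 and 13.3 CPM in tdT-GFP+ libraries 1, 2 and 3. Its groups did not overlap, and the log2 fold change was 0.26 (SE 0.092, adjusted p = 0.442, edgeR). The adhesion receptor gene Cd44 had 0.42 (SE 0.24), the matricellular gene Ccn4 0.41 (SE 0.25) and the transcription factor gene Tcf7 0.26 (SE 0.16). Over the fits that left out a library or kidney, the lowest values were 0.092 for Cd44 and 0.093 for Ccn4, both without kidney 2, and 0.044 for Tcf7 without kidney 3.

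Among the targets with negative values, the ligase gene Rnf43, the partner of Znrf3 in removing Wnt receptors, averaged 0.803 ± 0.360 CPM among tdT+GFP+ and 1.76 ± 0.613 CPM among tdT-GFP+ libraries (SD, n = 3), which is -1.14 on the log2 scale (SE 0.43, adjusted p = 0.447, edgeR). The homeobox gene Prox1, known also from lymphatic endothelium and kidney tubule, averaged 3.32 ± 1.14 CPM among tdT+GFP+ and 6.41 ± 1.63 CPM among tdT-GFP+ libraries (-0.95, SE 0.31). The zinc finger gene Zfp703 had -0.44 (SE 0.16). The values of Prox1 did not overlap between the groups. The summed endothelial markers, given above with the depth, were lower in tdT+GFP+ cells in the same libraries, and their part was not tested. The stem cell receptor gene Lgr5, the listed target with the widest interval, had 2.04, 0.580 and 4.95 CPM in tdT+GFP+ libraries 1, 2 and 3, against 1.45, 11.6 and 2.63 CPM in tdT-GFP+ libraries 1, 2 and 3. Its high library was tdT-GFP+ library 2, as for Tnfrsf19, Notum and Lef1, and it was named after its values were seen. Its log2 fold change was -1.06, and 0.29 when that library was left out.

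**Figure D5:**
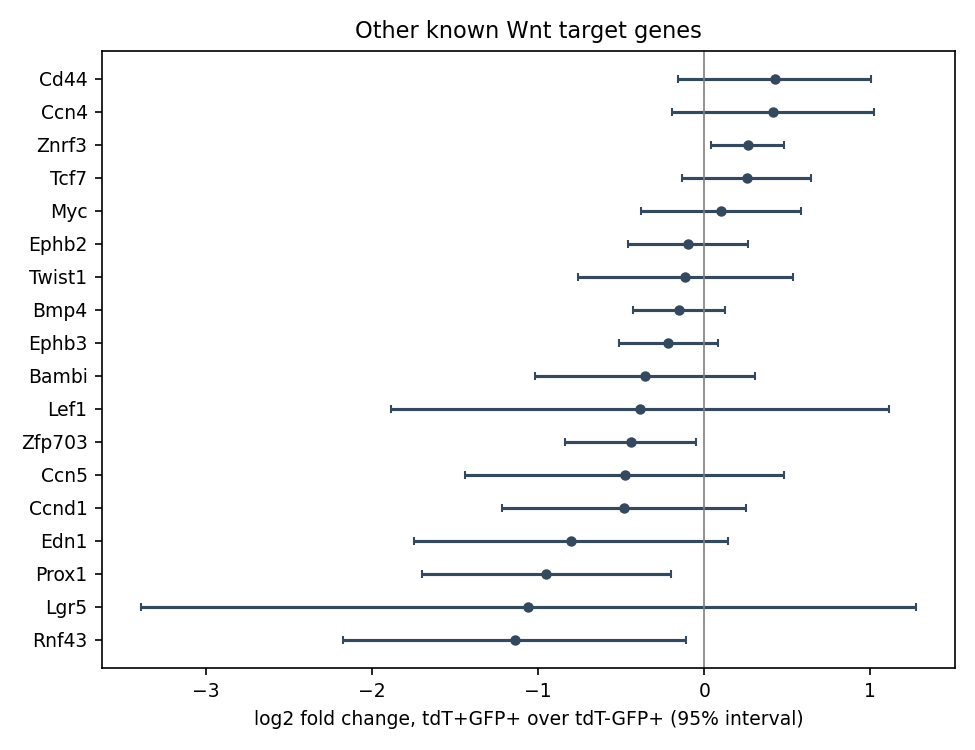
Log2 fold change of tdT+GFP+ over tdT-GFP+ cells with its 95% interval for 18 of the 19 other known Wnt targets that passed the filter on low counts, sorted by value. Of these, 13 lie below 0, and the intervals of Znrf3 (positive) and of Rnf43, Prox1 and Zfp703 (negative) exclude 0 before adjustment.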

How the data were processed

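The values deposited by the authors are expected counts from RSEM for each gene, per the file headers, and all were whole numbers. The tools named in the submitters' processing notes were R 3.6.3, DESeq2 1.26.0, RSEM 1.2.28, STAR 2.6.1 and bcl2fastq 2.20, and mm10 and GRCh38 stood there as builds with no role given. For the annotation release and the strand setting of the counting, nothing is given in the sources used here. The libraries were strand-specific and poly(A)-selected, per the labels' protocols. ERCC spike-in rows (92, all at 0) were left out. Without version numbers, 31748 of 31815 gene identifiers were found in GENCODE M21 (GRCm38), the source of coordinates and lengths. Antisense models overlap Axin2, Notum and Tnfrsf19 with at most 4 counts in any library. A count of 3 equals 0.0908 to 0.117 CPM here.

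After filterByExpr and TMM scaling, the quasi-likelihood test of edgeR 4.0.16 (R 4.3.3, robust glmQLFit) was run on the group alone, with Benjamini-Hochberg adjustment over all 15462 genes and a threshold of 0.05. SE is the coefficient over the root of F. Values per kidney and profiles use log2 CPM (prior count 2). The fit was checked on simulated data. Alternatives were DESeq2 size factors, upper-quartile factors, other filters, DESeq2 1.42.0, limma-voom 3.58.1, the kidney as a block, dropping haemoglobin, mitochondrial and ribosomal protein genes, and leaving out each library or kidney.

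The labels give same-numbered libraries the same kidney, so the numbers were taken to pair them, and the pairing was checked by correlating, across genes, the deviations of libraries from their group means. As the report gives, these correlations put numbers 2 and 3 in doubt; no other pairing was fitted. Whether the labelled biological replicates are separate animals is not stated, and the p-values measure the spread between these libraries.

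The genes and lists were chosen with earlier results of these data known. Named by rule were the 7 genes, the 3 genes nearest in profile to each of those with a mean of at least 1 CPM, up to 4 genes per Wnt list and direction with the smallest p and a mean of at least 1 CPM, and Acta2. A result that the rule would name among the Wnt targets is not reported here, though it stays in the counts of its list. Predicted gene models were left out of the profile search. The lists of markers for other tubule, podocyte, mural, mesothelial and Schwann cells were summed as well, and are reported in the closing section.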

Additional observations from a re-analysis of the deposited data

How the results depend on the processing

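None of the 7 genes was called in any of 124 recomputed values (smallest adjusted p = 0.348), while the sign turned in 16 of them, all among fits that left out a library or kidney. Leaving out libraries or kidneys gave log2 fold changes of -0.38 to 0.72 for Axin2, -0.20 to 0.59 for Nkd1, -0.49 to 0.57 for Nkd2, -1.29 to 0.24 for Notum, -0.12 to 1.05 for Apcdd1, -0.68 to 1.02 for Tnfrsf19 and -0.76 to -0.26 for Sp5. Without kidney 3 all 7 values were negative. Without kidney 2 the unadjusted p in edgeR was under 0.05 for 3 of the 7, against 1414 of the 15525 genes tested in that fit. The kidney as a replicate block changed no call in edgeR, with an Axin2 log2 fold change of 0.14 and adjusted p from 0.729 to 0.971 over the 7 genes. Over all genes, DESeq2 called 281, and 278 with the kidney as a block, against 0 in edgeR; the cause was not tested. The median of the other Wnt targets ran from -0.49 to -0.086 over the fits that left out libraries or kidneys, and that of the core transduction genes from -0.077 to -0.00022. Gsk3b ran from -0.017 without kidney 2 to 0.26 without kidney 3, Tnks2 from 0.015 without kidney 2 to 0.26, and Dvl3 from 0.032 without kidney 3 to 0.20 without kidney 2. With a filter of 1 CPM in 3 libraries, Notum and Sp5 were not tested. Whether depth or the spread between libraries kept the 7 genes from being called was not tested.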

Other observations

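None of the listed core genes of the Wnt pathway, which include co-receptors and genes for ligand release, was called between the populations. All 32 listed core transduction genes were tested, 0 were called by edgeR (1 had an unadjusted p under 0.05, against 10.7% of all genes, and DESeq2 called 0, against 1.93%), 15 had positive and 17 negative log2 fold changes, and the median was -0.0044, against -0.00039 over all genes tested. The kinase genes Csnk1a1 and Gsk3b of the destruction complex had 0.14 (SE 0.098) and 0.16 (SE 0.12), the Dishevelled gene Dvl3 0.12 (SE 0.083), and Tnks2, which encodes a tankyrase that marks Axin proteins for breakdown, 0.15 (SE 0.12). These 4 values moved by more than 1.5 times when single libraries were left out. Without tdT-GFP+ library 1, Csnk1a1 had 0.25, Gsk3b 0.25 and Tnks2 0.26; without tdT-GFP+ library 2, Gsk3b had 0.044 and Tnks2 0.049; without tdT-GFP+ library 3, Csnk1a1 had 0.086 and Dvl3 0.061. Gsk3b also had 0.095 without tdT+GFP+ library 2, and Tnks2 0.22 without tdT+GFP+ library 3. Groups without overlap were seen for 2 of 32, against 15.8% of all genes, and both (Apc2 and, named after its values were seen, the beta-catenin gene Ctnnb1) were lower in tdT+GFP+ cells. Apc2, a relative of the destruction complex scaffold Apc, had 3.94, 4.61 and 5.90 CPM in tdT+GFP+ libraries 1, 2 and 3, against 6.78, 7.10 and 7.12 CPM in tdT-GFP+ libraries 1, 2 and 3. The value on the log2 scale was -0.54 (SE 0.18, adjusted p = 0.438, edgeR). The Wnt co-receptor gene Lrp5 had -0.22 (SE 0.097), and the co-repressor genes Tle5 and Tle1 had -0.23 (SE 0.11) and -0.17 (SE 0.088), the value of Tle1 being -0.096 without tdT-GFP+ library 2.

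Of the markers of other cells, 11 of 12 mural and 11 of 12 distal and collecting tubule markers had negative log2 fold changes (medians -0.70 and -0.85), as did 10 of 10 injured tubule markers (median -0.66). The medians were -0.066 for 12 proximal tubule, -0.27 for 6 podocyte, 0.026 for 4 tested mesothelial and -0.40 for 2 tested Schwann cell markers. None of the markers in these lists was called by edgeR, against 0% of all genes tested.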
